A study of Mus musculus with 4 samples.

Results

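Laminins, fibulins, tenascins and other glycoproteins of the extracellular matrix were examined in adult mouse mesoangioblasts (AdmMABs) in which PW1 had been silenced. The list held 59 gene symbols, chosen by name and not by a cut on their values, though earlier results of these data were known. Ctgf is an older symbol of Ccn2, which leaves 58 genes. A gene was measured where the deposited table held a probe set annotated with its symbol alone, and a gene with several probe sets was taken by the one with the highest mean over all arrays. This gave 54 of the 19938 genes measured on the arrays. Fbn1, Efemp2 and Spp1 had no probe set with their symbol, and the probe set of Loxl2 also carried the symbol of a predicted gene, so these 4 genes were left out.

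Mesoangioblasts are grown out of small vessels and can form muscle fibres. The cells were a polyclonal population from the tibialis anterior muscle of adult male C57/BL6 mice, kept growing in medium with fetal serum. All 4 samples had been transduced with a lentiviral vector, expressing a scrambled short hairpin RNA in shCtrl (n = 2) or a short hairpin RNA against PW1 in shPW1 (n = 2), and the RNA of each was read on an Affymetrix Mouse Gene 1.0 ST array of its own. The 2 replicates of a group are RNA extractions of 1 transduced population, so the p-values cover the spread between extractions alone, and that spread may be technical. Only 1 hairpin targeted PW1, and any effects it had on other transcripts cannot be told apart from the silencing of PW1. The methods name a pLV-H1 plasmid for that hairpin and another lentiviral plasmid for a control hairpin, so vector and silencing cannot be told apart either.

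The matrix forms several structures that cells hold on to and build. Laminins are cross-shaped trimers of an alpha, a beta and a gamma chain that polymerize into the basement membrane, where nidogens and perlecan join them to type IV collagen; in muscle this sheet surrounds myofibres and capillaries, and mesoangioblasts must pass it on the way out of a vessel. Elastic fibres consist of elastin laid down on fibrillin microfibrils with the help of fibulins, emilins and microfibril-associated proteins, and lysyl oxidases crosslink them. Matricellular proteins such as tenascins, thrombospondins, SPARC and the CCN proteins have little structural role and alter how cells adhere, spread and respond to growth factors. The members were therefore described as basement membrane, elastic fibre and matricellular genes, with a remainder of adhesive glycoproteins, matrilins and large proteoglycans.

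Peg3, which encodes PW1, had log2 expression values of 8.67 and 8.70 in shCtrl, against 6.22 and 6.47 in shPW1. The groups did not overlap, and its log2 fold change of shPW1 over shCtrl was -2.34 (SE, the standard error, 0.10; adjusted p = 0.00428 from limma). Values are log2 intensities normalized by the authors, and a gene was called higher or lower at a Benjamini-Hochberg adjusted p under 0.05 from limma over all 21789 probe sets with exactly 1 gene symbol. Over these probe sets the replicates of a group had an SD of 0.11 in shCtrl and 0.12 in shPW1. The array medians lay between 5.40 and 5.49. Subtracting them turned the calls over all probe sets from 1075 higher and 908 lower to 1627 higher and 759 lower. No detection call was available, and the number of arrays limits the precision.

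Of the 54 measured members, 18 changed in shPW1 AdmMABs, 5 of them higher and 13 lower. Among all genes measured in the same way 9.28% were called, 4.93% higher and 4.35% lower. The members called were 33.3% of those measured, with 9.26% higher and 24.1% lower. The median log2 fold change was -0.15 over the members and -0.01 over all genes. Members were brighter than most genes, and bright probe sets were called more often: 41 members had a mean at or above the median of all values (5.45), and 17 of these were called. Among all genes at or above that level, 14.5% were called, 7.95% higher and 6.59% lower, whereas 5 of the 41 bright members were higher and 12 were lower. Of the 13 dim members, those under that level, only Efemp1 was called. In 45 of the 54 members (83.3%) the arrays of the groups did not overlap, against 55.5% of all genes, and 32 of the 45 were lower. All 18 members called were among these 45. The changes were mostly small, since Spon2 and Mfap2 were the only called members that moved at least 2-fold. An unadjusted p under 0.05 was found for 30 members, 55.6% of those measured, and for 27.8% of all genes; of the 12 that were not called, 10 had lower and 2 had higher values in shPW1. With any 1 of the 4 arrays left out, limma called 0 members and 0 probe sets in all, with an unadjusted p under 0.05 for 24 to 27 members and for 3790 to 5379 of the 21789 probe sets. In these fits a group of 1 array is assumed to vary like the other group.

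**Figure D1:**
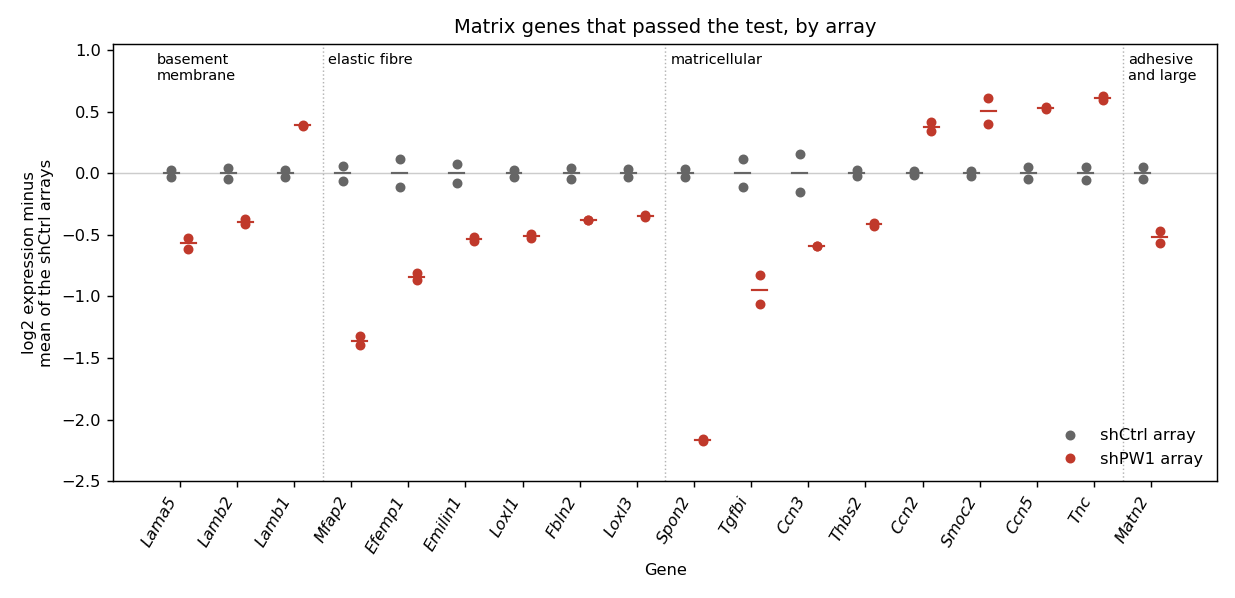
Log2 expression minus the mean of the shCtrl arrays (vertical axis) for the 18 members that passed the test (horizontal axis), grouped by structure. Points are single arrays (shCtrl grey, shPW1 red; 2 of each) and short lines are group means; the mean of shPW1 lies at -2.17 for Spon2 and at 0.61 for Tnc, and no gene has overlapping groups.

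Reference promoters were looked up for the genes that changed, to show the sequence from which their transcripts start. Windows from 250 bases before to 50 after a transcription start site were taken from RefSeq (build GRCm38.p6) and were found for 31 of the 54 members and 10 of the 18 called. Shown here are the called members with a window that rose most (Tnc) and fell most (Mfap2), and the laminin chains Lama5 and Lamb1, which moved in opposite directions. They lie at chr4:64046887-64047186 (- strand) for Tnc, chr4:141010174-141010473 (+ strand) for Mfap2, chr2:180225810-180226109 (- strand) for Lama5 and chr12:31265043-31265342 (+ strand) for Lamb1. Capitals mark matches to 5 motifs: the PW1 motif AGTNNCNNNTGGCT, the TATA box TATAAA (searched on the gene's own strand alone), the TEAD motif GGAATG, the AP-1 motif TGANTCA and the SMAD motif CAGACA. The others were searched on both strands, and in these windows no match overlaps another.
Tnc: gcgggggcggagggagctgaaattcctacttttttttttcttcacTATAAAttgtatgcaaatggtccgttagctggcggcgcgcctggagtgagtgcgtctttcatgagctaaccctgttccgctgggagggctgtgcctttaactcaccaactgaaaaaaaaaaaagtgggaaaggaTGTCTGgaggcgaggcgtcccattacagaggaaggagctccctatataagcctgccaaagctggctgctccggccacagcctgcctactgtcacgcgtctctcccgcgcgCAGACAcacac
Mfap2: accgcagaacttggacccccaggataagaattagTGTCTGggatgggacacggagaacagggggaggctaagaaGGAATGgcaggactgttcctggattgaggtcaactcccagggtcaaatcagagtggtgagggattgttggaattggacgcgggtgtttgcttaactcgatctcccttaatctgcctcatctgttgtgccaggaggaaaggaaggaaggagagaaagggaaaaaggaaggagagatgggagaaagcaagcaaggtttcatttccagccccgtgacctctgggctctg
Lama5: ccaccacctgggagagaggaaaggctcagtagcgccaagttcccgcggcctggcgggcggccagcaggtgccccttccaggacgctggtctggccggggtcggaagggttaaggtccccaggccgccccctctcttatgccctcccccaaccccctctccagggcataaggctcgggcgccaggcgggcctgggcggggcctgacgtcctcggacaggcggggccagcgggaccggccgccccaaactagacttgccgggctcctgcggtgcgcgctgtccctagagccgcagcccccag
Lamb1: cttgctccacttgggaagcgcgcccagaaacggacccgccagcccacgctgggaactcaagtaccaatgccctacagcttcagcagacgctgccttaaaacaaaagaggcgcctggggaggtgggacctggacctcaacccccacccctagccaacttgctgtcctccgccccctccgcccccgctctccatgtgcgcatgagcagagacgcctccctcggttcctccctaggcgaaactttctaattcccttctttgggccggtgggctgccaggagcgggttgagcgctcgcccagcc

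In the Tnc window the capitals are the letters TATAAA at position -205 from the start site and SMAD motifs at -71 and 39. The letters tatataag nearer the start site differ from the searched motif and were not marked. In the Mfap2 window they are a SMAD motif at -216 and a TEAD motif at -176. The windows of Lama5 and Lamb1 hold none of the 5 motifs. Tnc and Mfap2 each have a further, overlapping window. That of Mfap2 holds none of the 5 motifs, and that of Tnc holds TATAAA and 1 SMAD motif. Counted once per gene, the SMAD motif was present for 5 of the 10 called members and for 12 of the 31 members with a window (38.7%). Of the 27025 genes in the table, 23.6% had it. The letters TATAAA were present for 1 of the 10 (Tnc) and for 9.77% of all genes. A TEAD motif was found for Mfap2 and an AP-1 motif for Efemp1, against 16.6% and 8.97% of all genes. Among the 31 members with a window, 10 had a TEAD motif and 3 an AP-1 motif. The PW1 motif was present for 0 of the 31 members with a window and for 0.555% of all genes. These are matches of letters and do not show that a factor binds there.

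Among the basement membrane genes, the laminin chains did not move together. Of 14 measured members, Lamb1 rose, Lama5 and Lamb2 fell and 11 missed the threshold. The 3 called were 21.4% of the list (7.14% higher and 14.3% lower), against 9.28% of all genes (4.93% higher and 4.35% lower). Of all genes at or above the median of all values, 7.95% were higher and 6.59% lower. The share of higher members thus lay near that of all genes. The median log2 fold change of the list was -0.14. Lama5, the main alpha chain of vessel and other adult basement membranes, had log2 values of 8.07 and 8.02 in shCtrl and of 7.43 and 7.52 in shPW1. Both shPW1 arrays lay below both shCtrl arrays, with a log2 fold change of -0.57 (SE 0.07, adjusted p = 0.0192 from limma), or 1.48-fold lower. Lamb2, the beta chain found at neuromuscular synapses and in vessels, fell from 9.02 and 8.92 to 8.60 and 8.56, a log2 fold change of -0.39 (SE 0.06, adjusted p = 0.0348). Lamb1, the alternative and more widespread beta chain, went the other way, from 9.52 and 9.46 to 9.88 and 9.88, which is 1.31-fold higher (log2 fold change 0.39, SE 0.06, adjusted p = 0.0299).

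The shared gamma chain Lamc1, which most laminins contain, had values of 8.96 and 9.01 in shCtrl and of 9.03 and 9.14 in shPW1. Its log2 fold change of 0.10 did not pass the test (95% confidence interval from -0.08 to 0.28). Lama2, the alpha chain of the laminin that surrounds myofibres, missed the threshold with values of 6.06 and 5.93 in shCtrl and of 5.45 and 5.65 in shPW1. The groups did not overlap, and its log2 fold change was -0.44 (adjusted p = 0.0599). Lamb3, a chain of an epithelial laminin, was close to it at -0.43 (adjusted p = 0.0578). Both passed once dim probe sets were removed before adjustment (adjusted p = 0.0164 for Lama2 and 0.0153 for Lamb3). That setting called more probe sets in general, 2246 higher and 1782 lower of the 12637 left. Lama4, the alpha chain of endothelial and mesenchymal laminins, had a log2 fold change of 0.16 and Lama3, the partner of Lamb3, of -0.15. For Lama1 of embryonic basement membranes it was -0.11 and for Lamc3 -0.07, and none of these 4 passed the test; Lama1, Lama3 and Lama4 were dim.

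The proteins that tie laminin to the rest of the sheet did not pass the test either. Nid1, which encodes the linker nidogen-1, had values of 10.60 and 10.54 in shCtrl and of 10.87 and 10.85 in shPW1. These did not overlap, with a log2 fold change of 0.29 (SE 0.06, adjusted p = 0.0546). It passed without dim probe sets (adjusted p = 0.0117) and with array medians subtracted (log2 fold change 0.35, adjusted p = 0.0372). Its paralog Nid2 had a log2 fold change of -0.15 and Hspg2, which encodes perlecan, of -0.14. Npnt, which encodes nephronectin, a ligand of the integrin alpha8 beta1, showed a log2 fold change of -0.28 (limma adjusted p = 0.0677), and passed after a second quantile normalization (adjusted p = 0.0441) and without dim probe sets (adjusted p = 0.0166). Its values were 8.59 and 8.57 in shCtrl and 8.25 and 8.35 in shPW1.

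Elastic fibre genes were lower in shPW1 AdmMABs. Of 14 measured members 6 fell, 0 rose and 8 did not pass the test. Among the members with higher values, Fbln1 alone had an unadjusted limma p under 0.05. The lower members were 42.9% of the list, against 4.35% of all genes and 6.59% of those at or above the median of all values. The median log2 fold change of the list was -0.28. In 12 of the 14 both shPW1 arrays lay below both shCtrl arrays, and in Fbln1 they lay above; among all genes 28.5% had such non-overlapping groups with lower values and 27.0% with higher ones. Mfap2, which encodes the microfibril-associated glycoprotein MAGP-1, fell most, from 7.13 and 7.25 to 5.86 and 5.79. Its log2 fold change was -1.36 (SE 0.07, adjusted p = 0.00573 from limma), or 2.56-fold lower. Efemp1, which encodes fibulin-3, had values of 5.95 and 5.72 in shCtrl and of 5.02 and 4.96 in shPW1. It was 1.79-fold lower (log2 fold change -0.84, SE 0.10, adjusted p = 0.0184), but its mean was under the median of all values, and a fold at that level is less certain.

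Other parts of the fibre fell less. Emilin1, a glycoprotein at the interface of elastin and microfibrils, fell from 8.26 and 8.11 to 7.67 and 7.64, with a log2 fold change of -0.53 (SE 0.08, adjusted p = 0.0277). Its relative Emilin2 had a log2 fold change of -0.21 that did not pass (adjusted p = 0.154). Fbln2, which encodes fibulin-2, a protein of basement membranes and microfibrils, went from 10.78 and 10.69 to 10.36 and 10.36, which is 1.30-fold lower (adjusted p = 0.0351). Fbln5, needed for elastic fibre assembly, showed a log2 fold change of -0.21 (limma adjusted p = 0.209). Fbln1 had the highest log2 fold change of the list, at 0.23, with values of 9.16 and 9.05 in shCtrl and 9.28 and 9.39 in shPW1 (adjusted p = 0.133; 0.0464 without dim probe sets). The fibulins thus showed called falls in 2 of 4 members, Fbln2 and Efemp1, against 4.35% of all genes. Elastin itself (Eln) had a log2 fold change of -0.16, fibrillin-2 (Fbn2) of -0.11 and Mfap4, a further microfibril-associated protein, of -0.35; none passed the test, and Fbn2 and Mfap4 were dim.

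Lysyl oxidases, which crosslink elastin and collagens, were lower in 2 of 4 measured members. Of all genes 4.35% were lower, and of those at or above the median of all values 6.59%. Loxl1, a family member that acts on elastin, had values of 9.27 and 9.21 in shCtrl and of 8.72 and 8.75 in shPW1. It fell 1.42-fold (log2 fold change -0.51, SE 0.06, adjusted p = 0.0194). Loxl3 fell from 10.05 and 9.99 to 9.67 and 9.68 (log2 fold change -0.35, adjusted p = 0.0379). Lox, the founding enzyme, had values of 11.33 and 11.30 in shCtrl and of 11.07 and 11.19 in shPW1. Its groups did not overlap, yet its log2 fold change of -0.19 did not pass (adjusted p = 0.174, 95% confidence interval from -0.37 to -0.0049). Loxl4, the only member with more than 1 probe set, had overlapping groups and a log2 fold change of 0.03, which was 0.17 for the mean of its probe sets (adjusted p = 0.171). The calls of Fbln2 (adjusted p = 0.0538) and Loxl3 (adjusted p = 0.0703) were lost when array medians were subtracted.

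**Figure D2:**
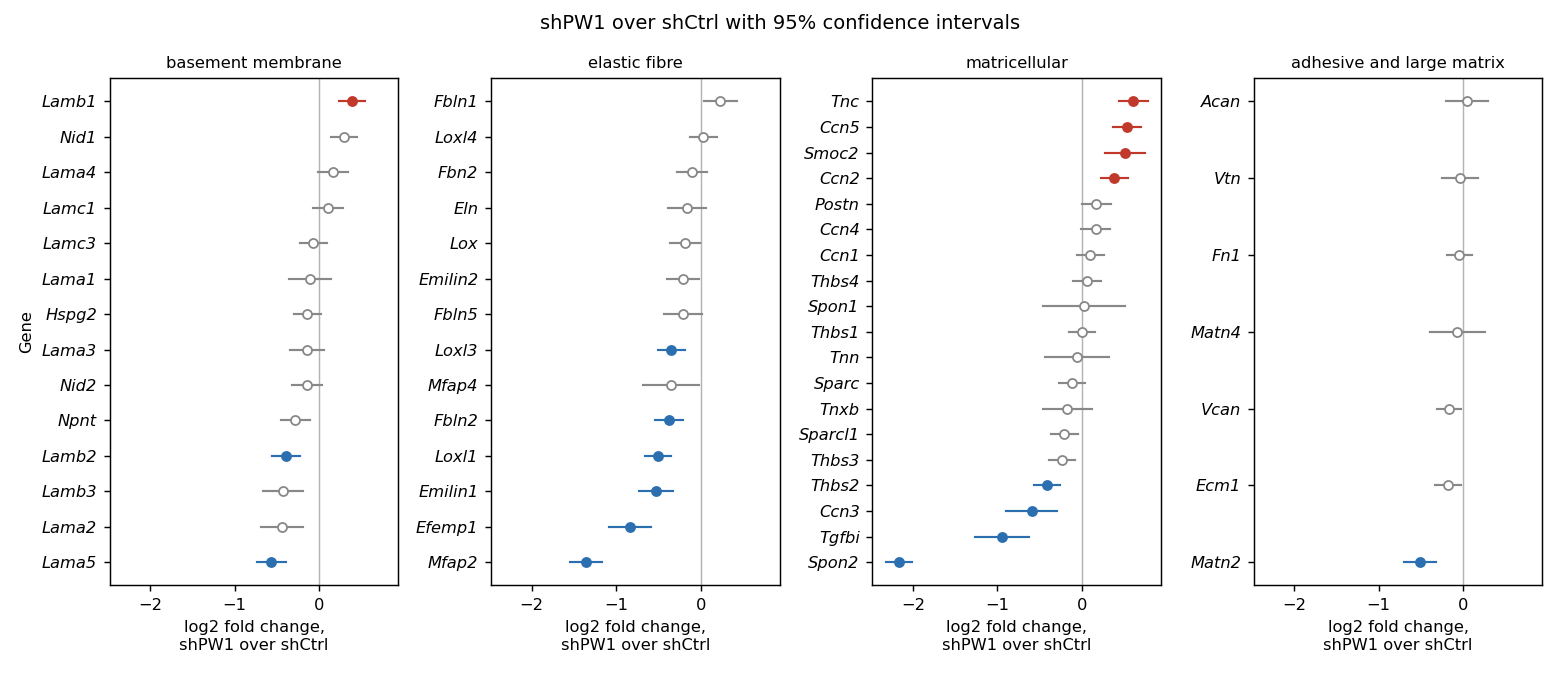
Log2 fold change of shPW1 over shCtrl (horizontal axis) for each of the 54 measured members (vertical axis), in 4 panels by structure. Points are limma estimates with 95% confidence intervals, coloured where called (higher red, lower blue) and open otherwise; elastic fibre genes run from -1.36 (Mfap2) to 0.23 (Fbln1), and matricellular genes from -2.17 (Spon2) to 0.61 (Tnc).

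Matricellular genes held the largest changes, in both directions. Of 19 measured members, Tnc, Ccn5, Smoc2 and Ccn2 rose, Spon2, Tgfbi, Ccn3 and Thbs2 fell and 11 missed the threshold. Each direction made up 21.1% of the list, against 4.93% of all genes higher and 4.35% lower. At or above the median of all values, 7.95% of all genes were higher and 6.59% lower. The median log2 fold change of the list was -0.0034. Spon2, which encodes spondin-2 (mindin), a secreted ligand of integrins in innate immunity, had values of 7.82 and 7.75 in shCtrl and of 5.63 and 5.61 in shPW1. It was 4.49-fold lower (log2 fold change -2.17, SE 0.06, adjusted p = 0.00222 from limma), the largest fall among the members. Its relative Spon1 was dim and had overlapping groups, and its log2 fold change of 0.02 had a wide 95% confidence interval, from -0.46 to 0.51. Tgfbi, a TGF-beta-induced protein that binds integrins and collagens, fell from 6.86 and 7.09 to 6.14 and 5.91, which is 1.93-fold lower (log2 fold change -0.95, SE 0.12, adjusted p = 0.0224).

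Tnc, which encodes tenascin-C, a large anti-adhesive glycoprotein of developing and injured tissue, was the member that rose most. Its values were 9.94 and 9.84 in shCtrl and 10.48 and 10.52 in shPW1. The log2 fold change was 0.61 (SE 0.07, adjusted p = 0.0167), or 1.53-fold higher. The other tenascins Tnxb and Tnn had overlapping groups, with log2 fold changes of -0.17 and -0.06 that did not pass the test, and Tnn was dim. Smoc2, a calcium-binding relative of SPARC found in basement membranes, rose from 8.31 and 8.28 to 8.69 and 8.91 (log2 fold change 0.51, SE 0.09, adjusted p = 0.0396). Sparc itself, a collagen-binding protein, had a log2 fold change of -0.12 (95% confidence interval from -0.27 to 0.03). Its paralog Sparcl1, which was dim, had one of -0.21, and neither passed.

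The CCN proteins, secreted regulators of adhesion and growth factor signalling, split. Ccn5, which lacks the carboxy-terminal domain of its relatives, rose from 7.55 and 7.64 to 8.12 and 8.13, with a log2 fold change of 0.53 (SE 0.06, adjusted p = 0.0202). Ccn2, which encodes connective tissue growth factor, rose from 10.45 and 10.48 to 10.81 and 10.88 and was 1.30-fold higher (adjusted p = 0.0337). Ccn3, an inhibitor of growth in many cells, went down from 5.92 and 5.61 to 5.17 and 5.17. Its log2 fold change was -0.59 (SE 0.11, adjusted p = 0.0483), and it no longer passed after a second quantile normalization (adjusted p = 0.0668) or at the thresholds of the methods (an unmoderated p of 0.0614). Ccn1 and Ccn4 had log2 fold changes of 0.10 and 0.16 with groups that did not overlap and did not pass the test. Ccn6, a further CCN gene that is no member, had overlapping groups and a log2 fold change of -0.08.

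Thrombospondins bind cells, calcium and growth factors. Thbs2, which restrains vessel growth and collagen fibre assembly, fell from 11.36 and 11.31 to 10.91 and 10.94 (log2 fold change -0.41, SE 0.06, adjusted p = 0.0272). Thbs1, its close paralog and an activator of latent TGF-beta, had values of 11.78 and 11.74 in shCtrl and of 11.75 and 11.77 in shPW1. The groups of Thbs1 overlapped, and its log2 fold change of -0.0034 (95% confidence interval from -0.16 to 0.15) turned to 0.05 when array medians were subtracted. Thbs3 showed a log2 fold change of -0.24 (limma adjusted p = 0.0783, or 0.0187 without dim probe sets) and Thbs4, which was dim, of 0.06. Postn, which encodes periostin, a matricellular protein of wounds and periosteum, showed a log2 fold change of 0.17 (limma adjusted p = 0.189).

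Among the adhesive glycoproteins, matrilins and large proteoglycans, 1 of 7 measured members passed the test. This is 14.3%, against 9.28% of all genes and 14.5% of those at or above the median of all values. Matn2, a matrilin that joins other matrix proteins into filaments, fell from 9.24 and 9.14 to 8.62 and 8.72 (log2 fold change -0.52, SE 0.07, adjusted p = 0.0261). Fibronectin (Fn1), the main adhesive protein of the mesenchymal matrix, had values of 11.98 and 11.94 in shCtrl and of 11.91 and 11.92 in shPW1. Its log2 fold change of -0.05 did not pass the test, lay between -0.20 and 0.10 with 95% confidence, and turned to 0.01 when array medians were subtracted. Versican (Vcan), a large hyaluronan-binding proteoglycan, had a log2 fold change of -0.17 and Ecm1 of -0.18, with groups that did not overlap (adjusted p = 0.143 and 0.135). Both passed without dim probe sets (adjusted p = 0.0439 and 0.0419). Vitronectin (Vtn), Matn4 and aggrecan (Acan) were dim and their groups overlapped, with log2 fold changes of -0.04, -0.07 and 0.04; that of Vtn turned to 0.02 when array medians were subtracted.

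Other genes of the same matrix structures, which are no members, were counted for comparison. Of 46 measured matrix glycoproteins and proteoglycans, 3 rose, 8 fell and 35 missed the threshold, with a median log2 fold change of -0.10. The shares were 6.52% higher and 17.4% lower, against 4.93% and 4.35% of all genes. At or above the median of all values the shares of all genes were 7.95% and 6.59%, so the higher share lay near them. Cthrc1, a secreted glycoprotein of injured tissue, fell most (log2 fold change -1.69), followed by the testican Spock2 (log2 fold change -1.36), the adhesion protein Svep1 (-1.22), Edil3 (-0.77), the basement membrane protein Tinagl1 (-0.57) and agrin (Agrn, -0.50), a heparan sulfate proteoglycan of basement membranes. The latent TGF-beta binding proteins Ltbp3 and Ltbp4, which are bound to microfibrils, were lower too, with log2 fold changes of -0.38 and -0.37, while Ltbp1 and Ltbp2 did not pass (log2 fold change 0.12 in each). Microfibril genes were not all lower: Mfap5, which encodes MAGP-2, the relative of the protein made from Mfap2, rose from 4.96 and 5.05 to 5.53 and 5.69 (log2 fold change 0.60, adjusted p = 0.0253), and Mfap3 rose by 0.46 on the log2 scale (adjusted p = 0.0337). Igfbp7, a secreted protein of vessel basement membranes, also rose (log2 fold change 0.42). Mfap5 and Edil3 were dim, with means under the median of all values.

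Receptors through which cells hold this matrix were mostly higher where they were called, while the list as a whole was not shifted. Of 25 measured receptors, 5 rose, 1 fell and 19 did not pass the test. Thus 20.0% of them were higher and 4.0% lower, against 4.93% and 4.35% of all genes. At or above the median of all values the shares of all genes were 7.95% and 6.59%. The median log2 fold change of the receptors was 0.0071, and 11 of the 25 had lower values in shPW1. The laminin-binding integrin chains moved apart, with Itga6 higher (log2 fold change 0.43, adjusted p = 0.0236) and Itga3 lower (-0.45, adjusted p = 0.0282). Itga7, the laminin-binding chain of muscle, had a log2 fold change of -0.13 and dystroglycan (Dag1), a laminin receptor, of -0.26, and neither passed. The fibronectin receptor chain Itga5 rose by 0.50, the heparan sulfate proteoglycan Sdc4 by 0.38 and the hyaluronan receptor Cd44 by 0.35. Itgb6, which partners Itgav to bind tenascin-C, fibronectin and latent TGF-beta, rose by 0.91. Itgb6 was dim, with values of 4.83 and 4.66 in shCtrl and of 5.44 and 5.87 in shPW1, and a fold at that level is less certain. The common partner Itgb1 showed a log2 fold change of -0.02 (limma adjusted p = 0.878).

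**Figure D3:**
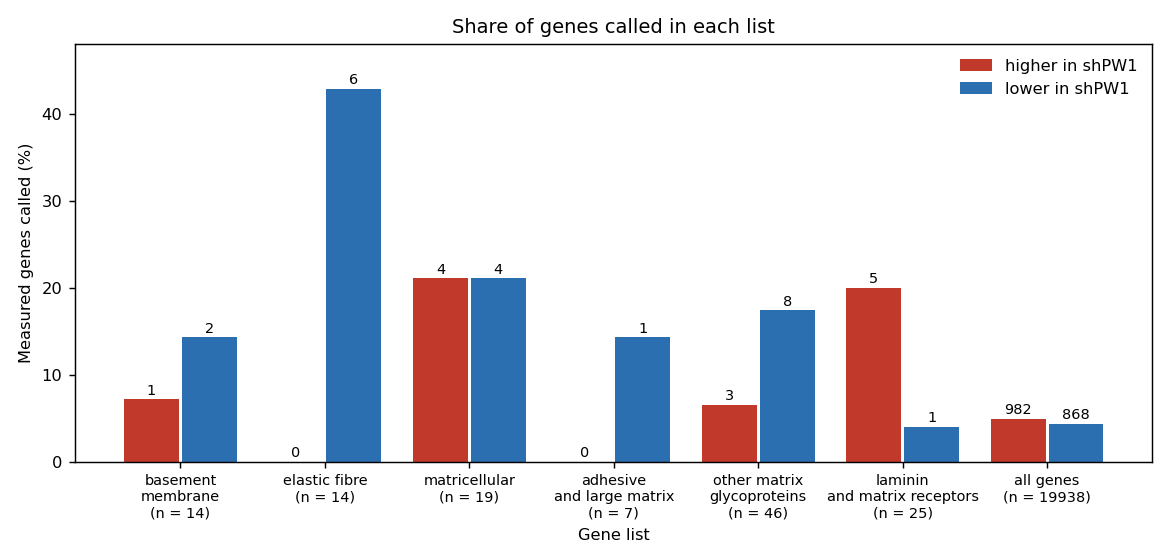
Share of measured genes called (vertical axis, percent) in each gene list (horizontal axis, with the number of measured genes), red for higher and blue for lower in shPW1, with the number of genes above each bar. Elastic fibre genes had 6 lower and 0 higher members, matricellular genes 4 of each, and matrix receptors 5 higher and 1 lower, beside 982 and 868 of all 19938 genes.

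Some markers of cells that make matrix were also lower in shPW1, and others were not. Among all genes 4.93% were called higher and 4.35% lower, or 7.95% and 6.59% of those at or above the median of all values. Of 8 mesoangioblast and pericyte markers, 4 were lower (log2 fold change -1.06 for Anpep, -0.66 for Cspg4, -0.45 for Pdgfrb and -0.35 for Mcam), and the mean log2 value of the list was 7.56 and 7.59 in the shCtrl arrays against 7.30 and 7.28 in the shPW1 arrays. Alpl, the alkaline phosphatase used to mark mesoangioblasts, lay near the median of all values in both groups (log2 fold change -0.09), and the pericyte markers Rgs5 and Abcc9 lay under it. Acta2, Rgs5 and Abcc9 had higher values in both shPW1 arrays, with log2 fold changes of 0.16, 0.09 and 0.09 that did not pass the test. Of 8 fibroblast markers, Dcn and Pdgfra were lower and the mean of the list was 8.02 and 7.997 against 7.75 and 7.73. Dcn was dim, with a mean just under the median of all values. The other 6 did not pass the test, with log2 fold changes of -0.25 for Col1a1, -0.27 for Col1a2, -0.25 for Col3a1, -0.17 for Thy1, -0.13 for Lum and 0.02 for Dpt. Of 7 satellite cell and myoblast markers, Myod1, Myog, Cdh15 and Des were lower, with a list mean of 8.24 and 8.26 against 7.75 and 7.71. Myf5 had higher values in shPW1 (9.04 and 9.01) than in shCtrl (8.92 and 8.84), with a log2 fold change of 0.15, and Pax7 and Itga7 stood at -0.03 and -0.13; these 3 did not pass the test. The part of these shifts in the lower elastic fibre, laminin and matricellular genes was not tested, and in bulk RNA fewer cells of a type and less RNA per cell cannot be told apart. Of 8 endothelial, 8 leukocyte and 3 Schwann cell markers 0 were called by limma and 0 had an unadjusted p under 0.05. Among all genes these shares were 9.28% and 27.8%, and in lists this small 0 called lies near the first. Means under the median of all values were found for 7 of the endothelial, 6 of the leukocyte and 1 of the Schwann cell markers. Those of Vwf, Cd68, Cd14, Sox10 and Ngfr lay above it.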

How the data were processed

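RNA of 2 shCtrl and 2 shPW1 samples of AdmMABs was hybridized to Affymetrix Mouse Gene 1.0 ST arrays. RMA normalization was done by the authors in Partek (6.4, per the submitters' processing notes), and the values they deposited are on the log2 scale, so background correction and summarization were not repeated here. Of 35556 rows, 21789 had exactly 1 gene symbol in the array's annotation and were tested; 1621 had several and 12146 had none.

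The fit of shPW1 against shCtrl used limma 3.58.1 (lmFit, eBayes) under R 4.3.3 (2 residual and 2.72 prior degrees of freedom). P-values were two-sided and adjusted over all 21789 probe sets. The test was checked on simulated arrays. Every measured member may be named; of the lists of other matrix genes and of receptors, up to 6 called genes per direction with the largest change were named, and the further genes of these lists and the markers named in the text were chosen after their values were seen, as were the promoter motifs. The members, lists and alternatives were chosen with earlier results of these data known. The alternatives were leaving out dim probe sets, testing every row of the table, quantile normalizing once more, centring on array medians, a trended robust prior, the thresholds of the methods (an unmoderated test at p under 0.05 with a fold change over 1.2, with and without adjustment), the replicate number as a block, the mean of all probe sets of a gene, and leaving out each array.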

Additional observations from a re-analysis of the deposited data

How the results depend on the processing

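The 18 called members kept their direction under the alternatives that change the values (a second quantile normalization, array medians subtracted, 1 array left out); most others leave the fold change as it is. With array medians subtracted 6 members were higher and 11 lower. With dim probe sets left out, 25 of 41 members tested were called, 17 of them among the 18, while Efemp1 was not tested. Calls were more frequent over all probe sets too, with 2246 higher and 1782 lower of 12637. In the main fit these were 1075 and 908 of 21789. Basement membrane members called rose from 3 to 7, adhesive and large matrix members from 1 to 3 and receptors from 6 to 12. A trended robust prior called 8 members higher and 21 lower (7 basement membrane, 3 adhesive and large matrix members and 13 receptors). It called 2735 of all 21789 probe sets higher and 1978 lower. At the thresholds of the methods 19 members were called, 17 of the 18 (Ccn3 was lost) with Nid1 and Npnt added, and 5 were of the basement membrane. Of all 21789 probe sets, 1383 were higher and 1165 lower at these thresholds. After Benjamini-Hochberg adjustment that test called 0 members, 0 other matrix genes and 0 receptors, with Peg3 at -2.34 (adjusted p = 0.105). With all 35556 rows tested, 0 members were higher and 2 lower (Spon2 and Mfap2; 0 basement membrane, 1 elastic fibre, 1 matricellular and 0 adhesive and large matrix members), beside 2 other matrix genes and 0 receptors. The mean of all probe sets of a gene changed no member's call, and Loxl4, the single member it could move, stood at 0.17.

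The replicate number shared by the groups was tried as a block, although the deviations of same-numbered arrays from their group means correlated at -0.11 and nothing in the labels pairs them. With this replicate block 0 members were higher and 3 lower (Spon2, Mfap2 and Efemp1; 0 basement membrane, 2 elastic fibre, 1 matricellular and 0 adhesive and large matrix members), with 5 other matrix genes and 0 receptors called. Over all 21789 probe sets 256 were higher and 258 lower. A crossed replicate block, chosen after seeing the data, called 1 member higher and 3 lower.

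With any 1 array left out, 0 members, other matrix genes and receptors were called by limma, and 24 to 27 members had an unadjusted p under 0.05. Peg3 ranged from -2.47 to -2.21 in these fits. Members that did not pass the test and whose sign turned in them were Lama1 (-0.22 to 0.0043), Loxl4 (-0.0014 to 0.061), Tnn (-0.26 to 0.13), Thbs1 (-0.023 to 0.017), Spon1 (-0.19 to 0.24), Vtn (-0.11 to 0.030), Matn4 (-0.24 to 0.094) and Acan (-0.072 to 0.16). Subtracting array medians turned Thbs1 to 0.055, Fn1 to 0.012 and Vtn to 0.018. The causes were not tested.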
